A study of Sus scrofa with 16 samples.

Results

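The regions described here are 3289 stretches of pig chromatin that were called open in newborn heart and newborn skeletal muscle and in neither kidney, lung, spleen nor liver of newborns. They were chosen by the peak calls themselves: the peaks of the 6 newborn lists on chromosomes 1 to 18 were pooled, overlapping intervals were merged into 243693 regions, and a region was kept when it held a heart peak and a muscle peak and no peak of the other 4 lists. Members made up 1.35% of all regions. Accessibility had been measured with ATAC-seq, in which a transposase cuts open DNA and leaves sequencing adaptors there, in 16 libraries that form 8 groups of 2 replicates. The groups are newborn heart, skeletal muscle, kidney, lung, spleen and liver (day 0 in the labels), and the liver of sucklings aged 28 days and of adults aged 180 days. Per the labels all animals were female crossbred domestic pigs. According to the methods of the study they were full-sib Berkshire × Tibetan hybrids, 2 at each age, and the muscle was longissimus dorsi, so heart and muscle came from the same pair of newborns. No treatment, transgene or deletion was used. Each deposited list merges the replicates of its group, so a count or share of regions has no replicate error, and a region without a peak is one in which no peak was called, not one measured as closed. The tissues are whole organs, and fewer nuclei of a cell type and less accessibility per nucleus cannot be told apart in them.

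Heart and skeletal muscle are the striated muscles of the body. Their cells share the sarcomere, the contractile unit built of thick and thin filaments between Z-discs, and the membrane systems that release and take up calcium at each contraction, although they arise from different precursors under different master regulators (GATA, NKX2-5 and T-box factors in heart, MYOD and its relatives in skeletal muscle). MEF2 proteins bind an A- and T-rich sequence and are active in both tissues, often beside factors specific to 1 of them. Myogenic factors of the MYOD family bind E-boxes, among which CAGCTG is a form they share with other bHLH proteins.

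The sequences below show what such regions look like. They are 200 bp windows at the median summit of the peaks (the positions where the peaks were highest), read from the plus strand of Sscrofa11.1 as given by RefSeq, with bases of annotated exons left out. TRIM55, whose product binds titin and microtubules in the sarcomere, had the strongest member of all. TTN, ACTN2, CASQ2, CAV3, PFKM and RBM20 had the strongest member in each of 6 lists of striated muscle genes. The window near CNR2 was the strongest with both a MEF2 and a CAGCTG match. SMYD2 and PDLIM5, chosen after the values were seen, stand for the strongest MEF2 match of all and the strongest at a listed gene. Capitals mark matches to the MEF2 consensus and to CAGCTG.
TRIM55 (chr4:68530944-68531143): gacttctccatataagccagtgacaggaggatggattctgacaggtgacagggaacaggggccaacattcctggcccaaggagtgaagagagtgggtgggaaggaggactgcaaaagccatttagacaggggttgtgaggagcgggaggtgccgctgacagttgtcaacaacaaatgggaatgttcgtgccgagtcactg
TTN (chr15:84501321-84501386): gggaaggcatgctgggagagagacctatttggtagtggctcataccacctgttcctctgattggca
ACTN2 (chr14:54739792-54739991): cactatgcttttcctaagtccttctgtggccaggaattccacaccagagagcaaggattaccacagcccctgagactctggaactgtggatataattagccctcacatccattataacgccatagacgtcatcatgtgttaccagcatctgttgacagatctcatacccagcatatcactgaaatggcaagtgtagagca
CASQ2 (chr4:104926783-104926982): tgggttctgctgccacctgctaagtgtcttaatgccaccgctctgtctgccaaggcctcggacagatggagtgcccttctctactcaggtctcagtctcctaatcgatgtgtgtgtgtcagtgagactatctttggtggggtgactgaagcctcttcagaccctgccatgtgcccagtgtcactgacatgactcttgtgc
CAV3 (chr13:65124860-65125059): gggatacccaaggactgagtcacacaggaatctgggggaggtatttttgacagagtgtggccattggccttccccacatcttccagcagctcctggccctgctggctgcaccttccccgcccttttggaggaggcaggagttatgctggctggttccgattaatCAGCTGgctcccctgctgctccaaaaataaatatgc
PFKM (chr5:78505307-78505506): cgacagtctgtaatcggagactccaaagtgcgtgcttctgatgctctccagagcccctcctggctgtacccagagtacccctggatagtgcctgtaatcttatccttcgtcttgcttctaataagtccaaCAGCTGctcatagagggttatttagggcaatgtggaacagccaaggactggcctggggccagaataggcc
RBM20 (chr14:121191754-121191953): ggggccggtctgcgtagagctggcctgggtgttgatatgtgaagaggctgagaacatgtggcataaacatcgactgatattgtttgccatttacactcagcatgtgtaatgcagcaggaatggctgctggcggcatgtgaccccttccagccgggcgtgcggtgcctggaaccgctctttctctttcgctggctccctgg
CNR2 (chr6:81698861-81699060): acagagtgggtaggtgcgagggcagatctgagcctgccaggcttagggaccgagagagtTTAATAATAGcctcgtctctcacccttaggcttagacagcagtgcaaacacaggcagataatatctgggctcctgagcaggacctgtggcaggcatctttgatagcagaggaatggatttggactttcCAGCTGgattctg
SMYD2 (chr9:129364434-129364633): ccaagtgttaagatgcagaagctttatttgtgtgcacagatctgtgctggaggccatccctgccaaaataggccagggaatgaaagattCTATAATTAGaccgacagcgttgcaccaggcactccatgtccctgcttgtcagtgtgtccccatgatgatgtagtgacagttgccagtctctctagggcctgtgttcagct
PDLIM5 (chr8:125315086-125315285): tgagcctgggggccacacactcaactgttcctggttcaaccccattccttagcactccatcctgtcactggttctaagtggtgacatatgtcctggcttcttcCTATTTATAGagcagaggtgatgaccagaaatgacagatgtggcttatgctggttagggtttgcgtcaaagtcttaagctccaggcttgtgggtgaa

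The window near CNR2 lay between genes, 6411 bp upstream of the nearest start site. It carried a MEF2 match and, near its other end, CAGCTG. The windows in introns of CAV3 and PFKM carried CAGCTG, and those of TRIM55, ACTN2, CASQ2 and RBM20 held neither sequence. At TTN the window covered the start of the gene, and only the 66 bases upstream of the first exon are shown. The CAGCTG of that window lies in the exonic bases left out. SMYD2 and PDLIM5 each held a single MEF2 match, 48308 and 55217 bp upstream of the nearest start site.

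Sharing between both striated muscles was mostly sharing with every tissue. Of the 31840 regions with a heart and a muscle peak, 19559 (61.4%) were called in all 6 newborn tissues, and 10.3% had no peak elsewhere. One further tissue had a peak in 2695 regions, and that tissue was kidney in 1065, liver in 627, lung in 611 and spleen in 392. The members held 4.75% of the autosomal heart peaks and 6.09% of the muscle peaks. Among the 15 pairs of tissues, heart and muscle ranked behind 4 others by the number of regions that the pair alone shared, namely kidney and liver (12168), spleen and liver (6247), kidney and lung (3876) and kidney and spleen (3347). The lists differ in length, from 54830 autosomal peaks in muscle to 128184 in kidney, and these numbers can move with it. Heart alone had 12307 regions and muscle alone 12141.

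Strength was described by the −log10 p that the peak caller gave in each replicate, a measure that also decided membership and so is given without a test. In heart the median over the members was 8.87 in replicate 1 and 12.3 in replicate 2. In muscle it was 11.7 and 16.2. The heart-only regions had medians of 6.61 and 7.69, and the muscle-only regions had medians of 8.24 and 9.72. All peaks of the heart list had medians of 9.32 and 9.95 and those of the muscle list 9.92 and 14.2, and the median member stood at the 51.0 percentile of the heart list and the 56.4 percentile of the muscle list. The members were thus near the middle of both lists and above the regions of 1 tissue only. Across members the replicates ranked the regions with a Spearman's rho of 0.388 in heart and 0.624 in muscle, where 3289 regions of the same pair of libraries are the points. The rank of a member within the heart list and within the muscle list went together weakly (rho = 0.234). Summits of the heart and the muscle peak lay 42 bp apart in the median, and within 100 bp of each other in 2628 members (79.9%). The choice of members by overlapping peaks itself brings summits near each other, and the distance was not computed for other shared regions.

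**Figure D1:**
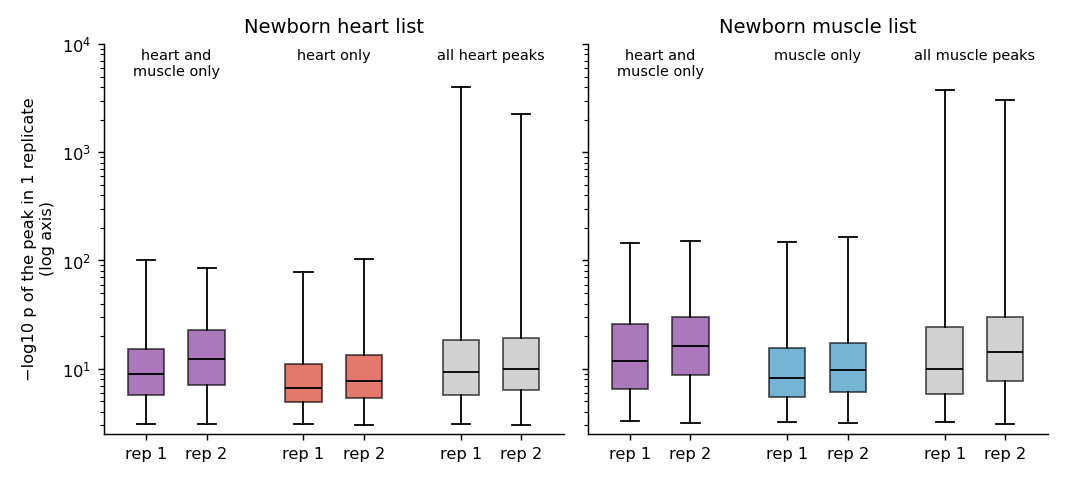
Strength of peaks in the newborn heart list (left) and muscle list (right), as −log10 p in 1 replicate on a log axis, for members, regions of 1 tissue only and all autosomal peaks of the list. Boxes span the quartiles with the median as a line and whiskers reach the lowest and highest value; member medians run from 8.87 to 16.2, above those of the regions open in 1 of the tissues only (6.61 to 9.72).

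Reproducibility of the members was near that of the whole lists. Each merged peak carries an irreproducible discovery rate (IDR), which is low where both replicates ranked the peak high and alike, so it follows strength as well as the match of the replicates. It was 0.05 or lower in heart for 568 members (17.3%), in muscle for 1109 (33.7%) and in both for 295 (8.97%). Over the whole lists it was 0.05 or lower for 19.9% of the heart peaks and 30.1% of the muscle peaks. The lowest of the 4 replicate values of a member ranged from 3.07 to 67.0, with a median of 5.93, so a typical member was close to the limit of calling in at least 1 library. The weakest members were in introns of RIN3 (lowest value 3.11) and LIMCH1 (3.09) and near CGNL1 (3.07). The threshold on the other side was set by the other tissues. In regions with heart, muscle and exactly 1 further tissue, the median strength of the further peak was 6.27 in kidney, 5.50 in lung, 6.47 in spleen and 7.02 in liver, and the weakest was 2.87. Within 500 bp of 427 members (13%) lay a peak of another newborn list.

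The strongest members were clear in all 4 libraries. TRIM55 had −log10 p of 69.4 and 67.0 in heart and 95.8 and 83.7 in muscle, in a region of 690 bp (chr4:68530639-68531328) whose summit lay 117 bp upstream of the start site. A region of 926 bp between genes, 58840 bp from the start of PPP1R3C (a subunit that directs a phosphatase to glycogen), had 62.2 and 61.1 in heart and 70.7 and 65.7 in muscle. In an intron of SEC24D, a coat protein of vesicles leaving the endoplasmic reticulum, a member reached 59.8 and 83.2 in heart and 93.8 and 96.7 in muscle. Both muscle values were above both heart values at TRIM55, PPP1R3C and SEC24D, but values of different libraries depend on their depth, which the lists do not give.

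Of the 10 strongest members, 4 lay between genes over 100 kb from any start site and so had no gene assigned. The strongest of these, on chromosome 2 at 112356800 to 112357814, had 61.9 and 77.2 in heart and 125 and 96.0 in muscle, and its window held CAGCTG. The other 6 included members deep in introns of CDH13 (54.0 and 49.7 in heart) and SAMD12 (48.2 and 59.2). CDH13 encodes an anchored cadherin of muscle and vessels. The region near SMYD2, a lysine methyltransferase of heart and skeletal muscle, had 56.2 and 56.8 in heart and 85.6 and 90.0 in muscle. Only 1 of the 10 held a MEF2 match and 3 held CAGCTG.

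Most members lay in introns and between genes. A promoter was taken from 2.2 kb upstream to 500 bp downstream of a start site of a protein-coding gene, and a region that touched several features was counted as promoter first, then exon, then intron, then the 300 bp downstream of a gene, and otherwise as intergenic. Introns held 1585 members, or 48.2% (Wilson 95% interval 46.5 to 49.9), against 43.7% of all regions. Heart-only regions had 50.3% in introns, and the members were 2.08 points lower (interval of the difference -4.00 to -0.16). Intergenic DNA held 1206 members (36.7%, 35.0 to 38.3) against 38.6% of all regions, exons held 314 (9.55%, 8.59 to 10.6) against 8.11%, and the downstream stretch held 14. Promoters held 170, or 5.17% (4.46 to 5.98), against 9.22% of all regions, a difference of -4.05 percentage points (Newcombe 95% interval -4.76 to -3.23). Among regions called with an IDR (defined above) of 0.05 or lower in heart and muscle the shares were 9.46% (6.63 to 13.3) and 9.87%, not told apart. When all 6 lists had to meet it the shares were 12.4% and 19.2%. Intervals cover counting error only, and neighbouring regions are not independent. The promoter share was above that of heart-only regions (2.80%, difference 2.37 points, 1.60 to 3.23) and muscle-only regions (3.62%, 1.55 points, 0.77 to 2.42). Any touch of a promoter counted, and members were wider than both, with a median of 617 bp against 354 and 340 bp. The part of width was not tested. The share was not told apart from that of regions shared by kidney and liver alone (5.87%, difference -0.70 points, -1.53 to 0.21) or by heart and lung alone (5.53%, -0.37 points, -1.91 to 1.01).

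**Figure D2:**
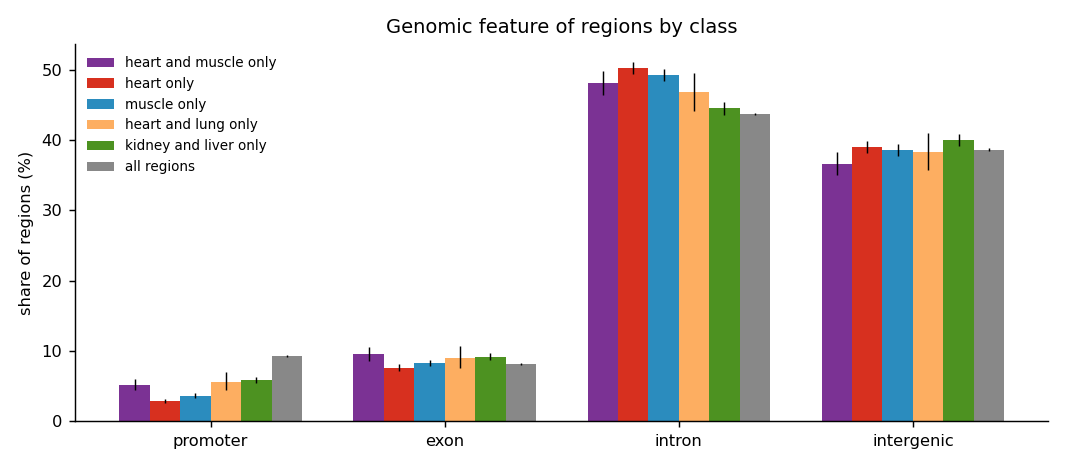
Share of regions (%) in promoters, exons, introns and intergenic DNA for members, 4 other classes of newborn regions and all regions; bars are shares and lines are Wilson 95% intervals. Members had 5.17% of regions in promoters, above heart-only (2.80%) and muscle-only regions (3.62%), near heart and lung only (5.53%) and below all regions (9.22%).

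The members were wider than all regions, and their distance to start sites was between that of all regions and that of the regions most like them. Their median width was 617 bp against 461 bp of all regions, 354 bp of heart-only and 340 bp of muscle-only regions. A member merges at least 2 peaks, which widens it by construction; regions shared by heart and lung alone had a median of 616 bp. The median distance to the nearest start site was 37082 bp, against 31135 bp over all regions, 39446 bp for muscle-only, 44153 bp for heart and lung only and 47812 bp for heart-only regions. The share of regions that were members ran from 0.934% on chromosome 12 to 1.60% on chromosome 15, the chromosome that holds TTN.

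MEF2 matches set the members apart. For the 3119 members outside promoters, the 200 bp windows were searched on both strands for the MEF2 consensus and 16 other consensus sequences, none of which the choice of members used. A MEF2 match was found in 461 members, or 14.8% (13.6 to 16.1), against 2.85% of all 221228 regions outside promoters. The difference was 11.9 percentage points (10.7 to 13.2), a 5.19-fold higher share, and it had the same sign on 18 of 18 autosomes. Heart-only regions had a MEF2 match in 7.92% and muscle-only regions in 6.10%, so the members were 6.86 points (5.55 to 8.23) above the former and 8.68 points (7.40 to 10.03) above the latter, again on every autosome. Regions shared by kidney and liver alone were at 1.45%. Inside promoters 33 of 170 members had a match (19.4%, 14.2 to 26.0). With the letters of the consensus in reverse order the difference between members and all regions was -0.13 points (-0.46 to 0.32).

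Spelling and position of these matches were also described. The most frequent spelling was ctaaaaatag (ctatttttag on the other strand), in 81 members, or 2.6% of them against 0.333% of all regions. Next came ctatttttaa in 46 members, ctaaaaataa in 44 and ctataaatag in 42. Matches in members were gathered at the summit: the 20 bp from the window centre onward held 2.47 matches per 100 regions, and the outermost bins of the 400 bp searched held 0.385 and 0.417. Over all regions the same bins held 0.326, 0.295 and 0.306, so no peak stood at their centre. Heart-only regions (1.02, 0.376 and 0.401) and muscle-only regions (0.855, 0.367 and 0.385) also had more matches at the centre, with a lower rise than the members.

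**Figure D3:**
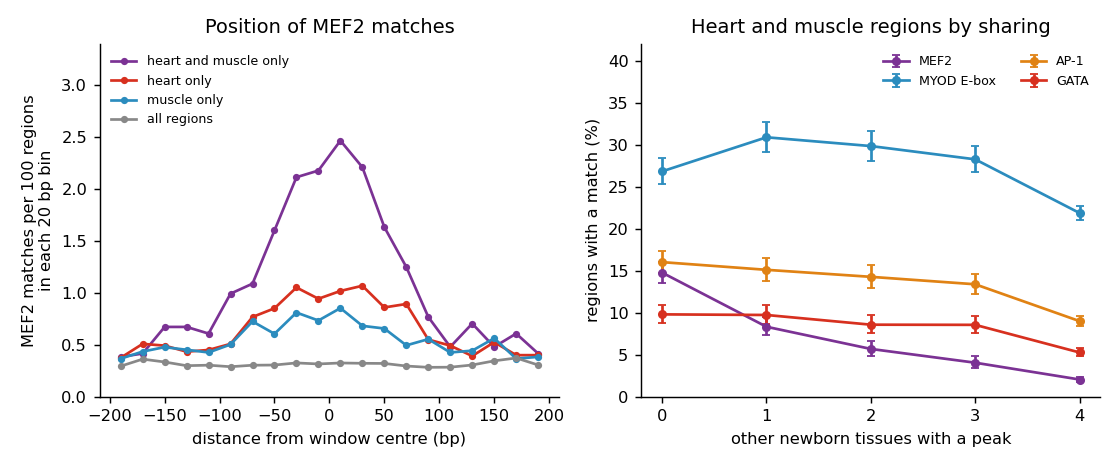
Left, MEF2 matches per 100 regions in 20 bp bins by distance from the window centre (bp), for members, heart-only, muscle-only and all regions outside promoters. Right, share of regions with a match (%) against the number of other newborn tissues with a peak, for all regions with a heart and a muscle peak; lines are Wilson 95% intervals. The MEF2 curve of the members rises to 2.47 at the centre, and the MEF2 share falls from 14.8% with no other tissue to 2.06% with all 4 others.

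The MEF2 share fell step by step as more tissues shared a heart and muscle region. It was 14.8% in the members, 8.34% (7.33 to 9.47) with 1 other tissue, 5.70% (4.86 to 6.66) with 2, 4.06% (3.42 to 4.81) with 3 and 2.06% (1.79 to 2.37) with all 4. The intervals of neighbouring steps overlapped for none of these. CAGCTG took another course, with 26.8% in the members, 30.9% with 1 other tissue and 21.9% with all 4. Base composition moved along this series too: the median GC content of the windows was 50% in the members and 58% in regions of all 6 tissues, and its part in the fall was not tested. Within 4 bins of GC content that split all regions evenly, chosen after the data were seen, members stayed above all regions in each: 27.0% against 6.72% in the bin lowest in GC and 8.19% against 0.679% in the highest.

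CAGCTG stood between both tissues. It was found in 837 members outside promoters (26.8%, 25.3 to 28.4), against 19.8% of all regions, a difference of 7.06 points (5.52 to 8.65). Muscle-only regions had it more often (30.2%, members 3.36 points lower, interval -5.11 to -1.58) and heart-only regions less often (16.9%, members 9.95 points higher, 8.28 to 11.7). The GATA sequence AGATAA went the other way. It was in 9.81% of the members, in 20.8% of heart-only and 6.86% of muscle-only regions, and in 10.4% of all regions, from which the members were not told apart (difference -0.60 points, -1.61 to 0.50). With its letters in reverse order (aataga) the share was 14.7% in members against 7.43% in all regions, and 139 of those 460 members also had a MEF2 match. CAGCTG and AGATAA thus had shares in the members between those of heart-only and muscle-only regions, whereas the MEF2 share was above both.

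MEF2 and CAGCTG in the same window were found in 88 members (2.82%, 2.30 to 3.46), against 0.444% of all regions, a 6.35-fold higher share. Within the members, however, CAGCTG was less frequent where a MEF2 match was present, with 19.1% of 461 against 28.2% of 2658, a difference of -9.09 points (-12.8 to -4.90). Windows with a MEF2 match were poorer in GC, with a median of 45.5% against 51%. In each of the 4 bins of GC content the share of CAGCTG was lower with MEF2 than without, by amounts from 28.6% against 30.8% in the third to 23.2% against 37.1% in the highest. The members were not alone in this: over all regions outside promoters CAGCTG was at 15.6% of 6299 with MEF2 against 19.9% without. If both sequences were independent, 3.97% of the members and 0.563% of all regions would hold both, more than was found in either.

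Without a limit on IDR, AP-1 and MEIS sequences were above all regions by about as much as CAGCTG. The AP-1 sequence TGANTCA was in 16% of the members against 8.77% of all regions (7.26 points, 6.01 to 8.59), and 14% of muscle-only and 8.58% of heart-only regions had it. CTGTCA, bound by MEIS and related homeodomain proteins, was in 23.1% against 16.2% (6.94 points, 5.48 to 8.46), near the 22.8% of heart-only regions (difference 0.33 points, -1.31 to 2.01). The likeness to CAGCTG did not hold under limits on IDR. With a limit of 0.05 in heart and muscle the excess was 5.01 points for AP-1, 18.7 for MEIS and 15.7 for CAGCTG. With that limit on all lists it was 4.83, 11.3 and 12.7 points. The TEAD sequence CATTCC was in 16.6% against 12.9%, and the NKX2 sequence CAAGTG in 15.4% against 12.7%. With the 54830 strongest peaks of each list the excess of NKX2 fell from 2.64 to 1.16 points and that of TEAD from 3.78 to 2.27 points, and with an IDR limit of 0.05 in heart and muscle the interval for NKX2 spanned 0 (-0.27 to 8.51). The CArG box, bound by SRF, was in 44 members (1.41%) against 1.18% of all regions, a difference whose interval spans 0 (0.23 points, -0.13 to 0.71). It was 1.23 points (0.32 to 2.64) under an IDR limit of 0.05 on all lists and 1.82 points (0.35 to 4.61) under that limit in heart and muscle. The T-box sequence AGGTGT was at 8.40% against 9.56%, and AAGGTCA of ERR and other nuclear receptors at 5.10% against 6.16%.

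Several further sequences were rarer in the members than in all regions, and for most of them heart-only and muscle-only regions were low as well. GTTAATNAT of HNF1, a regulator of liver and kidney, was in 5 of 3119 members (0.160%) against 1.07% of all regions and 3.36% of regions shared by kidney and liver. Heart-only regions had it in 0.393% and muscle-only regions in 0.282%. GAGGAAGT of SPI1, a regulator of blood cells, was at 0.802% against 2.44%, and at 0.986% in heart-only and 0.829% in muscle-only regions. TTGCNNAA of C/EBP was at 7.25% against 10.4%, TGTTTAC of FOX proteins at 2.40% against 3.81%, TGTGGTT of RUNX at 3.14% against 4.62% and GGGCGG of SP and KLF proteins at 7.15% against 9.85%. From heart-only regions the members were not told apart for SPI1 (-0.18 points, -0.51 to 0.23), C/EBP (-0.32, -1.31 to 0.75), FOX (0.30, -0.26 to 0.94) or SP and KLF (0.79, -0.18 to 1.84). The same held for HNF1 (-0.23 points, -0.39 to 0.003). With the letters of GGGCGG in reverse order the difference from all regions was -2.61 points, beside -2.70 for the sequence itself. Few matches of different consensus sequences shared bases. CAGCTG and CTGTCA did so in 73 members, and any other pair in at most 13, which was NKX2 with C/EBP. A match is a description of letters, not of a bound factor.

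**Figure D4:**
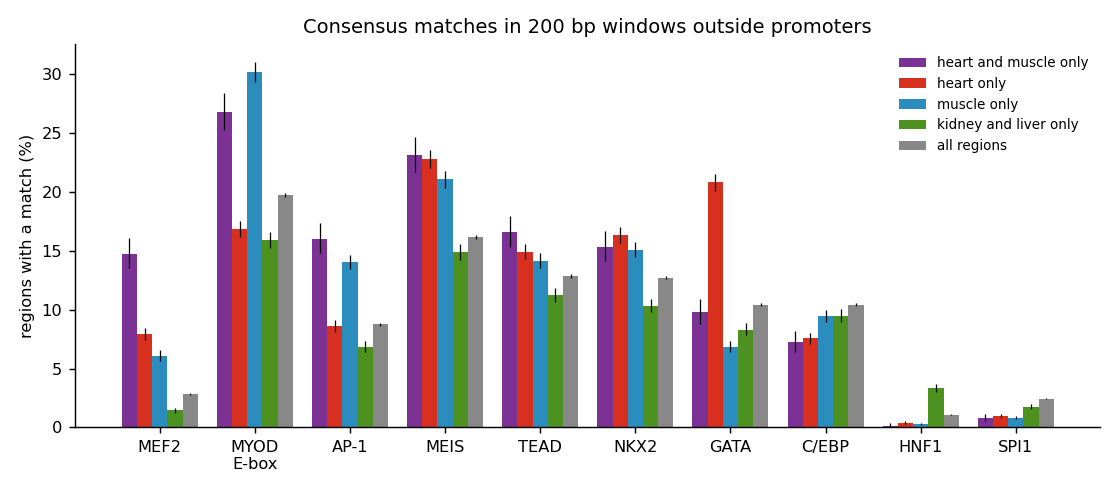
Share of regions outside promoters (%) with a match to each of 10 consensus sequences in the 200 bp window, for members, heart-only, muscle-only, kidney and liver only, and all regions; lines are Wilson 95% intervals, and the MYOD E-box is CAGCTG. MEF2 was in 14.8% of the members and 2.85% of all regions, whereas GATA was highest in heart-only regions (20.8%).

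Strong members had MEF2 more often. When the members were split evenly into 4 bins by the lowest of the 4 values, from the weakest bin to the strongest, the MEF2 share was 11.8%, 12.3%, 15.1% and 20.2%, and CAGCTG was at 23.3%, 24.7%, 29.0% and 30.6%. AP-1 showed no such course (15.6%, 18%, 15.5% and 15.1%). CTGTCA (20.8%, 22.1%, 21.6% and 28.2%) and AGATAA (9.37%, 8.22%, 9.66% and 12.1%) were also most frequent in the strongest bin, without a steady rise. Other classes of regions were not split by strength. Among the members with an IDR of 0.05 or lower in both lists, 23.2% of 267 outside promoters had MEF2 (18.6 to 28.6) against 14% of the other 2852 (12.8 to 15.3). Those members lay in promoters in 9.49% of cases, against 4.74% of the others.

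Genes were linked to members through the body of a protein-coding gene and its 2.2 kb upstream, or else the nearest start site within 100 kb, which left 500 members without a gene. At least 1 member was found at 1908 of 18725 genes (10.2%), exactly 1 at 1398, and 5 or more at 38. Regions at any gene were members in 1.33% of cases. At the 146 matched genes of 6 striated muscle lists, 210 of 3615 regions were members, or 5.81% (5.09 to 6.62), and 82 genes had at least 1. Without TTN the share was 5.37%. Long genes hold more regions of any kind, which is why shares of regions are given. With the 54830 strongest peaks of each list the share was 8.71%, beside 2.79% at any gene, and from replicate 2 alone at that list length it was 9.40%, beside 3.02%. With members limited to an IDR of 0.05 or lower in heart and muscle it was 1.19%, beside 0.13%. Regions of 1 tissue were also frequent at the 146 genes: 415 of the 3615 were open in heart alone and 585 in muscle alone. At any gene the counts were 9987 and 10099 of 209568 regions.

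Sarcomere genes had the highest share of the 15 lists, but only with TTN included. Of 497 regions at 23 genes, 53 were members (10.7%, 8.25 to 13.7), and 17 genes had at least 1. Another 53 of these regions were open in heart alone and 129 in muscle alone. TTN, the giant spring of the sarcomere, had 19 members among 60 regions, the most of any gene. Of its other regions, 8 were open in heart alone and 27 in muscle alone. Both of its promoter members were strong: the one at the start site (chr15:84501024-84501794) had −log10 p of 38.0 and 46.0 in heart and 89.3 and 70.4 in muscle, and the one 702 bp downstream had 35.8 and 44.8 in heart and 71.3 and 52.1 in muscle. The other 17 lay in exons (11) and introns (6), and their lowest values ranged from 3.51 to 9.72, so all of them were weak in at least 1 library. Without TTN, sarcomere genes were at 7.78%, below the 8.98% of the Z-disc list.

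MYH7, the slow myosin heavy chain of the ventricle and of slow fibres, had 2 members, 9465 and 2461 bp upstream, and a MEF2 match in both. The nearer had 27.2 and 41.2 in heart and 26.5 and 45.5 in muscle. LMOD2, which lengthens thin filaments, had a member in an exon with 37.2 and 53.0 in heart and 66.2 and 81.9 in muscle. MYL3, the slow light chain, had a promoter member 136 bp upstream, with 38.2 and 28.4 in heart and 14.6 and 17.0 in muscle. TNNC1 (troponin C of heart and slow fibres) and TNNT1 (slow skeletal troponin T) had promoter members (1 and 2), with lowest values of 8.07 at TNNC1 and of 8.65 and 11.5 at TNNT1.

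At 26 genes of the Z-disc and of muscle stress, 37 of 412 regions were members (8.98%, 6.59 to 12.1). ACTN2 (alpha-actinin, which anchors thin filaments) and CSRP3 (a mechanical sensor at the Z-disc) had 5 each. The strongest at ACTN2 lay in an intron and had 35.5 and 46.9 in heart and 61.9 and 62.0 in muscle. At CSRP3 the promoter member, 17 bp from the start, had 28.5 and 42.4 in heart and 40.6 and 54.1 in muscle, and the other 4 had lowest values from 3.69 to 7.98. SYNPO2L, an actin-binding protein of the Z-disc, had a promoter member with 32.8 and 28.8 in heart and 52.9 and 41.3 in muscle. All 3 members at MYPN, a partner of titin and nebulin, were in promoters, and 2 of 3 at KLHL41, a chaperone of nebulin, held MEF2. TRIM63 and FBXO32, the ubiquitin ligases of muscle wasting, had 2 and 3 members.

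Calcium handling and excitation genes had 40 members among 842 regions (4.75%, 3.51 to 6.40). JPH2, which ties the calcium store to the cell surface, had 10 of them among 32 regions (31.2%), spread over 73.7 kb of the gene, with lowest values from 3.72 to 9.02 and MEF2 in 3. JPH1, its relative in skeletal muscle, had 4, of which the strongest had 41.7 and 33.2 in heart and 31.7 and 29.2 in muscle. CASQ2, the calcium buffer of the cardiac store, had 3 in introns, with 33.9 and 40.6 in heart and 37.2 and 39.7 in muscle at the strongest. SRL had 3 intronic members, and ASPH, whose short form junctin sits in the store membrane, had 2, both with MEF2. RYR2 and SLC8A1, the release channel and the sodium-calcium exchanger, had 1 each, whereas 53 and 27 of their regions were open in heart alone.

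The remaining lists of striated muscle were nearer to each other. Regulators and splicing factors had 46 members among 894 regions (5.15%, 3.88 to 6.80). MEF2C, itself a MEF2 factor, had 8, none with a MEF2 match, and lowest values from 3.88 to 9.97. RBFOX1 had 7, CELF2 5, and RBM20, which controls splicing of titin, 4, the strongest with 41.2 and 58.3 in heart and 51.5 and 49.3 in muscle. RBM24, a splicing factor of both muscles, had 3, and its intronic member had 35.3 and 53.3 in heart and 60.9 and 60.2 in muscle. Only 1 of the 46 members of this list, at RBM20, had a MEF2 match (2.17%, 0.385 to 11.3), beside 15% of the members at any gene. Membrane and costamere genes had 21 among 551 (3.81%, 2.51 to 5.76), led by DTNA with 6, and CAV3, the caveolin of muscle, had 3, all with CAGCTG. Energy metabolism had 13 among 419 (3.10%, 1.82 to 5.24). PFKM, the phosphofructokinase of muscle, had an intronic member with 35.4 and 55.7 in heart and 85.1 and 91.3 in muscle, and PPARA, a nuclear receptor of fatty acid oxidation, had one with 25.6 and 42.9 in heart and 32.1 and 53.2 in muscle.

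Over the 6 lists together, MEF2 matches were not more frequent than elsewhere: 28 of 210 members had one (13.3%, 9.39 to 18.6), against 418 of 2789 at any gene (15%).

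**Figure D5:**
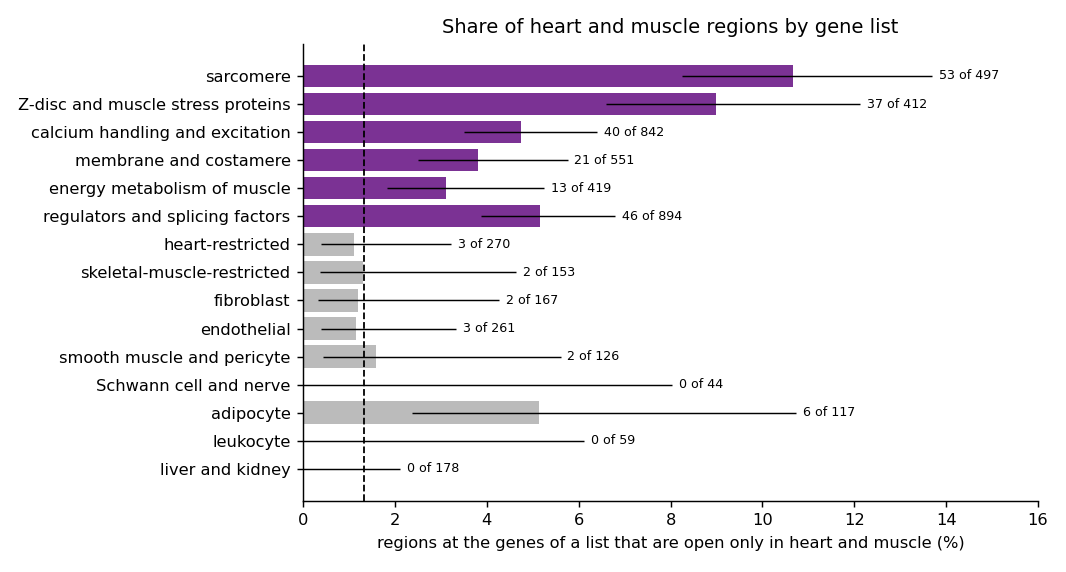
Share of the regions at the genes of each list that were members (%), with Wilson 95% intervals as lines, the counts beside the bars, and the share at any protein-coding gene (1.33%) as the dashed line; lists of striated muscle are purple. Sarcomere (10.7%) and Z-disc genes (8.98%) lie furthest above the dashed line, and heart-restricted (1.11%) and skeletal-muscle-restricted genes (1.31%) lie near it.

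Genes restricted to 1 of the muscles had members about as often as any gene (1.33%). Heart-restricted genes had 3 among 270 regions (1.11%, 0.379 to 3.22), at NPPB, TBX5 and CORIN, while 58 of their regions were open in heart alone. Skeletal-muscle-restricted genes had 2 among 153 (1.31%, 0.359 to 4.64), at MYOG and MUSK, while 64 were open in muscle alone. Both labels were checked at the promoters: all 17 heart-restricted genes had a promoter peak in heart and 6 in muscle, and all 20 skeletal-muscle-restricted genes had one in muscle and 4 in heart. A promoter peak also stood at 10 to 12 of the heart-restricted and 6 to 10 of the skeletal-muscle-restricted genes in each of the other 4 newborn lists.

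Other cell types could be common to heart and muscle, and their genes were counted in the same way. Fibroblast genes had 2 members among 167 regions, endothelial genes 3 among 261, and smooth muscle and pericyte genes 2 among 126. These shares, from 1.15% to 1.59%, are near the 1.33% at any gene. Schwann cell and nerve genes had 0 of 44, leukocyte genes 0 of 59 and liver and kidney genes 0 of 178, for which a limit of 3 counts of the total allows shares of up to 6.82%, 5.08% and 1.69%. Each of these limits is above the 1.33% at any gene, so these counts do not show a lack of members. Adipocyte genes had 6 among 117 (5.13%, 2.37 to 10.7), of which 5 lay at LPL. LPL encodes lipoprotein lipase, which heart and muscle also make to take up fatty acids, and without it the share was 1.01%. Its strongest member, in an exon, had 20.4 and 59.2 in heart and 64.8 and 50.8 in muscle. Of the 8 adipocyte markers, 2 (LPL and PPARG) had a promoter peak in heart and 1 (LPL) in muscle, and ADIPOQ, CIDEC and LEP had none in either. Of the 9 endothelial markers 8 had one in heart and 5 in muscle, of the 10 fibroblast markers 6 and 4, and of the 10 smooth muscle and pericyte markers 8 in each. The part of these cells in the members was not tested.

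Outside the lists, the genes with most members were of mixed kinds. CDH13 had 11 among 126 regions over a gene of 1022 kb, all in introns. Counts per gene depend on the rule that links regions to genes: with the nearest start site alone CDH13 had 3, CUX1 3, AKAP6 4, SNX29 1 and TTN 13. Under an IDR limit of 0.05 on all lists CDH13 and TTN had 3 each and JPH2 had 1. TMEM182, a membrane protein of muscle cells, had 8 among 52, of which the strongest had 28.6 and 60.8 in heart and 71.4 and 77.5 in muscle. PDE4D, which breaks down cyclic AMP, had 8 among 239 (3.35%), and its relative PDE4B had 6 among 87. AKAP6, an anchor of protein kinase A at the nuclear envelope of muscle cells, TLN2 (talin 2, a link of integrins to actin) and CUX1 had 7 each, and SH3PXD2A, SNX29, DST and LOC100624559, annotated as myomegalin, had 6 each. TLN2 had a strong promoter member, with 36.0 and 45.5 in heart and 91.3 and 67.2 in muscle.

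Members stood in groups at several of these genes. When members with gaps of at most 20 kb were joined, 780 of the 3289 stood with at least 1 other, 62 groups held 3 or more and 22 held 4 or more. Grouping was not counted for other classes of regions, so these counts do not show whether members group more than other regions. TTN had 11 in 68.4 kb, JPH2 10 in 73.7 kb and TMEM182 6 in 37.8 kb. CSRP3 had all 5 of its members in 14.5 kb, and LOC100624559 had 5 in 49.8 kb, of which 3 held MEF2. Members that stand so close are not independent of each other.

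Livers of older animals gave the only samples that the choice of members did not use. In suckling liver 300 members were called (9.12%, 8.18 to 10.2), against 13.6% of all regions without a newborn liver peak. In adult liver 322 were called (9.79%, 8.82 to 10.9), against 6.99%. Heart-only regions were at 6.76% and 4.75%, and muscle-only regions at 5.54% and 5.91%, so members were called more often than both in each list, by 2.36 to 5.04 points. Any overlap counted as a call, and members were wider, with a median of 617 bp against 354 and 340 bp. The part of width in these differences was not tested. From regions shared by heart and lung alone (10.8% and 9.22%), of similar width (616 bp), members were not told apart. The differences were -1.72 points (-3.75 to 0.17) and 0.57 points (-1.39 to 2.37). The order against all regions in adult liver turned with the processing: under an IDR limit of 0.05 on all lists it was 17.8% of the members against 22.8%, and from replicate 2 alone, with 54830 peaks a list, it was 8.65% against 9.33%. With that list length and both replicates it was 9.47% against 8.72%. The 487 members called in either list had a MEF2 match less often than the others outside promoters (9.29% against 15.7%, difference -6.45 points, -9.18 to -3.18), and their windows had a higher median GC content (53% against 49.5%).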

How the data were processed

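ATAC-seq libraries of pig tissues were made in 16 samples (2 replicates of 8 groups, assigned from the titles). The authors aligned reads to Sscrofa11.1 with Bowtie2, filtered them with SAMtools 1.3.1, called peaks in each replicate with MACS2 and merged replicates by IDR. The deposited lists give for each merged peak the interval of each replicate, its −log10 p as set by the authors' peak caller, and a score made by the authors' merging step, in which 540 stands for an IDR of 0.05. Which animal gave which replicate column is not given in the sources used here. Read depth is not in the lists, and the depths that the study gives for its libraries were not used here.

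Peaks on autosomes were merged into regions wherever they shared at least 1 bp (Python 3.11.15, NumPy 2.4.6, pandas 2.3.3, SciPy 1.17.1). Features and genes came from the RefSeq annotation of Sscrofa11.1. Windows of 200 bp were centred on the median summit and searched on both strands for 17 consensus sequences; regions in promoters were left out of the comparison of matches. Shares have Wilson and differences Newcombe 95% intervals. No p-value was computed, because each list pools its replicates. The steps were tested on simulated data. The members, the 15 gene lists, the consensus sequences and the comparisons were chosen with earlier results of these data known. Genes were named when they belonged to a list and had a member, were among the 15 with most members (17 with ties), or were nearest to the 10 strongest members by the lowest of the 4 replicate values. The weakest members and strong promoter members such as TLN2 were named after their values were seen. The results for 1 gene and 1 consensus sequence are not reported here. Alternatives were limits on IDR, equal numbers of top peaks, each replicate alone, overlap by a share of at least 0.5 of the shorter peak, a distance of 500 bp to other peaks, other promoter and gene definitions, 400 bp windows, consensus sequences with letters in reverse, and 4 even bins of GC content.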

Additional observations from a re-analysis of the deposited data

How the results depend on the processing

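Limits on IDR and on list length moved the size of most results. The promoter share of the members was below that of all regions under every alternative run, though not always told apart from it. With an IDR limit of 0.05 in heart and muscle it was 9.46% (6.63 to 13.3) against 9.87%, which were not told apart. Under an IDR limit of 0.05 on all lists there were 828 members, of which 12.4% lay in promoters, 46.3% in introns and 33.5% in intergenic DNA. The excess over all regions was then 14.4 points for MEF2, 12.7 for CAGCTG and 0.20 for AAGGTCA (reversed in sign), and 13.6% and 17.8% of the members were called in suckling and adult liver, beside 27.1% and 22.8% of regions without a newborn liver peak. With that limit in heart and muscle alone the values were 296 members, 9.46% in promoters, 33.8% intergenic, 20.9 points for MEF2, 15.7 for CAGCTG and 1.01 for AGGTGT (reversed), 1.19% of the regions at striated muscle genes (0.13% at any gene) and 8.11% in suckling liver (15.1% of regions without a newborn liver peak). With the 54830 strongest peaks of each list, promoters held 6.18%, the MEF2 excess was 9.85 points, the share at striated muscle genes 8.71% (2.79% at any gene) and that in suckling liver 6.2% (9.48%).

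Each replicate alone (the other left out, with 54830 peaks a list) gave 4411 to 4705 members, 5.96% to 6.12% in promoters, a MEF2 excess of 8.87 to 10.3 points, a share of 7.93% to 9.40% at striated muscle genes (2.68% to 3.02% at any gene), and 5.57% to 5.80% in suckling (8.86% to 11.2%) and 7.96% to 8.65% in adult liver (6.01% to 9.33%). AGGTGT went from -0.22 to 0.27 points, reversed without replicate 2. With no other peak within 500 bp adult liver had 8.81%. Promoters from 1 kb upstream to 100 bp downstream held 3.28%. With all annotated genes the shares were 6.60% in promoters, 53.6% in introns and 28.6% intergenic. In 400 bp windows the MEF2 excess was 13.5 points. Within 4 even bins of GC content, chosen after seeing the data, it was 20.3, 7.5 and 7.51 points in the lowest, second highest and highest bin, and CAGCTG was at 4.74 and 10.9 in the lowest and highest. With letters in reverse order, the excess was 7.32 points for GATA (-0.60 for the sequence itself), 2.39 for MEIS (6.94) and -2.61 for SP and KLF (-2.70). The other differences were -0.13 for MEF2, 0.020 for CAGCTG, -1.23 for NKX2, 0.47 for T-box, -0.33 for TEAD, -0.14 for AP-1, 0.29 for ERR, 0.058 for HNF1 and 0.19 for FOX, and within 0.4 of 0 for CArG, C/EBP, SPI1 and RUNX. The cause of these shifts was not tested, except that stricter limits keep fewer peaks. The main results were the number of members and their shares by feature, MEF2, CAGCTG, striated muscle genes and later liver. For these, 43 alternative values stayed within the interval of the value given, or within 1.5 times for counts. Another 40 moved beyond that, and 1, MEF2 with its letters in reverse order, changed sign.

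No paired analysis was possible because no result comes from a test and membership rests on peaks merged over both replicates; the values of each replicate were used singly. Depth limits every absence of a peak and was not analysed here.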
